A study of Mus musculus with 18 samples.

Results

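Genes of the Notch pathway were measured in bone marrow-derived dendritic cells (DCs) that were left nonconfined, confined or treated with LPS. The genes are the ligands *Jag1*, *Dll1* and *Dll4*, the receptors *Notch1*, *Notch2* and *Notch4*, the transcription factor *Rbpj*, the regulators *Dtx2* and *Nrarp*, and the target *Hes1*. They were chosen by symbol and make up 10 of 62197 genes in the table, of which 25177 have a symbol. Of the 10, 9 passed a filter that asked 3 or more libraries to reach 10 normalized counts, and *Hes1* did not.

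Notch signaling runs between neighboring cells. A ligand of the Jagged or Delta-like family on one cell binds a receptor on the next, and cleavage by ADAM10 and γ-secretase then frees the intracellular domain of the receptor, which joins RBPJ and a Mastermind coactivator on DNA and switches on targets such as *Hes1* and *Nrarp*. In DCs, microbial stimuli are known to raise ligand expression, Delta-like and Jagged ligands have been linked to different kinds of helper T cell responses, and NOTCH2 is known for its role in the development of type 2 conventional DCs.

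The study asked how DCs respond to being squeezed and whether this needs cPLA_2_, the lipase encoded by *Pla2g4a*. All 18 bulk RNA-seq libraries came from mouse bone marrow cells cultured for 10 days with serum and with supernatant of transfected J558 cells as the source of GM-CSF, and there were 3 libraries in each of 6 groups. The groups were nonconfined cPLA_2_ WT and cPLA_2_ KO DCs without treatment, collected when the culture ended, cPLA_2_ WT and cPLA_2_ KO DCs at 4 h of confinement at a height of 3 µm, and nonconfined DCs labelled cPLA_2_ WT or cPLA_2_ KO that received LPS at 100 ng ml-1 for 30 min, were washed and were collected on the following day. These are the times of the labels, and the Methods give 25 min for LPS. Treatment and collection time therefore cannot be told apart. According to the Methods, cPLA_2_ KO mice carry a *Pla2g4a* allele made with CRISPR–Cas9 for conditional deletion and the *Itgax-cre* transgene, which acts in CD11c+ cells, so other cells of the culture may keep the gene. The sex and the age of the mice behind each library are not given in the labels, nor is it said there that replicates are separate cultures or animals. The paper's figure legend calls each dot of these data a biological replicate without saying what was repeated, so that p-values measure only the spread between these libraries.

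The values are normalized counts, that is, reads on a gene divided by a size factor of the library, with no scaling for gene length. The libraries held between 33027230 and 61300021 reads on genes. Fold changes are differences in log2(normalized count + 1), which understate the change of genes with few reads, and each adjusted p is from limma with Benjamini-Hochberg adjustment over the 17875 genes tested in that comparison. A gene is called higher or lower at an adjusted p under 0.05.

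*Pla2g4a*, the targeted gene, was measured first as a check of the labels. It was at 697, 686 and 770 normalized counts in nonconfined cPLA_2_ WT libraries and at 548, 542 and 533 in nonconfined cPLA_2_ KO libraries. In confined DCs it was at 1369, 1430 and 1321 in cPLA_2_ WT and at 923, 871 and 920 in cPLA_2_ KO libraries. The cPLA_2_ KO libraries were thus lower without overlap in both conditions, although the gene's reads were not lost, and the count covers the whole gene. In the LPS groups it was at 1005, 969 and 967 in the libraries labelled cPLA_2_ WT and at 1065, 1032 and 1028 in those labelled cPLA_2_ KO, so that the latter were not lower.

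*Ddx3y*, a gene of the Y chromosome, showed the same mismatch. It reached at most 3.05 normalized counts in the 6 nonconfined and confined cPLA_2_ WT libraries and at least 874 in the 6 cPLA_2_ KO libraries. In LPS-treated DCs it was at 1271, 0 and 662 in the libraries labelled cPLA_2_ WT and at 2.12, 1476 and 783 in those labelled cPLA_2_ KO. *Acot1*, a thioesterase gene, was at most 6.76 in nonconfined and confined cPLA_2_ WT libraries and at least 377 in cPLA_2_ KO libraries, whereas LPS libraries were at 54.9, 0.915 and 33.6 under the cPLA_2_ WT label and at 0, 49.2 and 40.7 under the cPLA_2_ KO label. As groups, the LPS libraries therefore do not follow their genotype labels. In *Ddx3y*, replicate 1 of each label goes against its label, replicate 2 goes with it, and replicate 3 lies between, at 662 and 783. The LPS libraries were pooled as 6 libraries and compared with the 6 nonconfined libraries, and "labelled" is written wherever their genotype is used. By *Ddx3y*, replicates 1, 2 and 3 labelled cPLA_2_ WT are like replicates 2, 1 and 3 labelled cPLA_2_ KO, and the sums of 4 eosinophil markers, 36363, 21505 and 28670 against 35689, 21272 and 29182 in that order, are alike too. Over 17875 genes, the deviations from the group mean of these pairs correlated only weakly, with r of 0.10, 0.16 and -0.005. For replicates 1 and 2 paired by the same number instead, r was lower, at -0.14 and -0.13. The 6 libraries may thus come from fewer sources, and every SE and p-value for LPS treats them as 6 separate ones. In nonconfined and confined DCs, the genotype and expression from the Y chromosome cannot be told apart.

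The DC label was checked against marker genes. All 8 DC markers passed the filter, and *Cd74*, a chaperone of MHC class II, was the most abundant, at 189379 to 336000 normalized counts. *Itgax* was at 4194 to 7192, and *Zbtb46*, a transcription factor of conventional DCs, at 468 to 1379. The DC markers moved with the conditions, with 6 called lower with confinement for cPLA_2_ WT DCs (28.4% of all genes), 8 for cPLA_2_ KO DCs (23.4%), and 7 called higher with LPS (37.2%). Their sums were 474740 to 500112 in nonconfined cPLA_2_ WT, 567610 to 604894 in nonconfined cPLA_2_ KO libraries, 418024 to 448576 in confined cPLA_2_ WT, 406465 to 421652 in confined cPLA_2_ KO and 602374 to 718808 in LPS-treated libraries. Markers of other cells were present as well. The summed level of 8 neutrophil markers, led by *S100a9*, was 225608 to 230879 in nonconfined cPLA_2_ WT, 318144 to 354292 in nonconfined cPLA_2_ KO libraries, 135733 to 144608 in confined cPLA_2_ WT, 313860 to 329649 in confined cPLA_2_ KO and 260014 to 296890 in LPS-treated libraries. That of 4 eosinophil markers, led by *Prg2*, was 25630 to 25981, 56968 to 60196, 6551 to 7158, 14067 to 14860 and 21272 to 36363 in the same order. Of 8 macrophage markers, led by *Csf1r*, 5 were called lower with confinement in cPLA_2_ WT DCs (28.4% of all genes) and 6 in cPLA_2_ KO DCs (23.4%). Of these markers, 0 were called higher with confinement in either genotype (28.2% and 22.8%). With LPS, 2 were higher (37.2%) and 6 lower (34.3%). The sums of the macrophage markers lay between 40791 and 59219. Those of 5 mast cell and basophil markers, led by *Cpa3*, were 6123 to 6341 in nonconfined cPLA_2_ WT, 9168 to 9678 in nonconfined cPLA_2_ KO libraries, 2465 to 2643 in confined cPLA_2_ WT, 4034 to 4146 in confined cPLA_2_ KO and 5830 to 6429 in LPS-treated libraries, and all 5 were called lower with confinement in both genotypes (28.4% and 23.4% of all genes). The 4 T cell markers, led by *Cd3g*, summed to 2492 to 3223 in nonconfined, 797 to 1308 in confined and 527 to 592 in LPS-treated libraries. The Methods state that granulocytes and macrophages were separated from DCs by adhesion and that the semiadherent cells were kept. The part of other cells in the results on Notch genes was not tested.

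*Dll4*, which encodes a Delta-like ligand, was close to 0 in nonconfined DCs, rose with confinement in cPLA_2_ WT DCs and reached its highest levels with LPS. It was at 0, 1.71 and 0 normalized counts in nonconfined cPLA_2_ WT libraries and at 178, 154 and 137 after confinement. All confined cPLA_2_ WT libraries thus lay far above all nonconfined ones. These values rest on 480 reads against 2, a ratio of 276 (95% interval of counting error 76.0 to 2286), and the log2 fold change was 6.81 ± 0.38 (SE, limma adjusted p = 2.018e-12). In bulk RNA, more cells of a type that expresses a gene and more RNA per cell cannot be told apart, here and for the genes that follow.

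In cPLA_2_ KO DCs the rise of *Dll4* was small. Nonconfined cPLA_2_ KO libraries were at 1.57, 7.45 and 1.94 normalized counts and confined ones at 8.63, 11.7 and 9.11. The groups did not overlap, but the lowest confined library was close to the highest nonconfined one. With 29 reads against 12 the ratio was 2.76 (95% interval 1.37 to 5.94), and the log2 fold change was 1.43 ± 0.38 (SE, limma adjusted p = 0.004432), a call that was lost when only the 2 compared groups were fitted. The difference between the genotypes in the response to confinement was tested directly, and the interaction was -5.39 ± 0.54 (SE, limma adjusted p = 9.763e-08). Confined cPLA_2_ WT DCs had 16.1 times the *Dll4* level of confined cPLA_2_ KO DCs (95% interval 11.1 to 24.3, from 480 and 29 reads).

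After LPS, *Dll4* lay at 853 to 1078 normalized counts with a median of 878 in 6 libraries, above every other library. The ratio to the 6 nonconfined libraries was 458 (95% interval 273 to 838), from 5614 and 14 reads, with a log2 fold change of 8.62 ± 0.27 (SE, limma adjusted p = 2.037e-17). LPS-treated DCs also stood above confined cPLA_2_ WT DCs, by a ratio of 5.91 (95% interval 5.38 to 6.50). The comparisons with confinement and with LPS share the nonconfined libraries. In nonconfined DCs the cPLA_2_ KO libraries were called higher than cPLA_2_ WT libraries, with a log2 fold change of 1.52 ± 0.38 (SE, limma adjusted p = 0.01668), but this rests on 12 and 2 reads. The call was lost without nonconfined cPLA_2_ WT replicate 1 or 3 (1.28 each) or cPLA_2_ KO replicate 2 (0.98), with a pseudocount of 5 (0.59), with edgeR (2.42) and DESeq2 (2.64), and when the 2 groups were fitted alone.

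*Dll4* is also known as a gene of endothelial cells, whose markers were therefore examined. Of 8 endothelial and stromal markers 6 passed the filter, and their sum stayed between 1674 and 2099 in all 18 libraries. *Pecam1* was the most abundant, at 1092 to 1833 normalized counts, while *Tek* was at most 3.88, *Dcn* at most 8.08 and *Cdh5* at most 20.1. The sum is mostly *Pecam1* and does not show the smaller genes. *Pdgfrb*, a gene of pericytes and other stromal cells named after its values were seen, was at 7.62 to 15.7 in nonconfined cPLA_2_ WT, 13.0 to 22.7 in nonconfined cPLA_2_ KO libraries, 58.3 to 94.8 in confined cPLA_2_ WT, 4.27 to 14.6 in confined cPLA_2_ KO and 149 to 223 in LPS-treated libraries, with an interaction of -3.54 ± 0.50 (SE, limma adjusted p = 1.067e-05). *Kdr*, named after its values were seen, was at 104 to 114 in nonconfined cPLA_2_ WT, 53.3 to 73.5 in nonconfined cPLA_2_ KO libraries, 208 to 245 in confined cPLA_2_ WT, 63.7 to 82.1 in confined cPLA_2_ KO and 332 to 625 in LPS-treated libraries. *Col1a1* and *Pecam1* went the other way in part. *Col1a1*, also picked with its values known, was at 96.3 to 115 in nonconfined cPLA_2_ WT, 158 to 176 in nonconfined cPLA_2_ KO libraries, 40.3 to 57.5 in confined cPLA_2_ WT, 126 to 167 in confined cPLA_2_ KO and 43.9 to 85.6 in LPS-treated libraries, and *Pecam1* at 1425 to 1833 in nonconfined and 1092 to 1212 in LPS-treated libraries. Of the 6 markers tested, 2 were called higher and 1 lower with confinement in cPLA_2_ WT DCs, beside 28.2% and 28.4% of all genes, 0 higher and 1 lower in cPLA_2_ KO DCs, beside 22.8% and 23.4%, and 2 higher and 2 lower with LPS, beside 37.2% and 34.3%.

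*Dll1*, the other Delta-like ligand gene measured here, moved in opposite directions with confinement in the 2 genotypes. It was at 70.1, 65.7 and 62.9 normalized counts in nonconfined cPLA_2_ WT and at 142, 119 and 123 in confined cPLA_2_ WT libraries. Nonconfined cPLA_2_ KO libraries were at 119, 112 and 112, and confined cPLA_2_ KO libraries at 21.6, 21.3 and 10.9. Every confined cPLA_2_ WT library thus lay above every nonconfined cPLA_2_ WT library. Every confined cPLA_2_ KO library lay below every nonconfined cPLA_2_ KO library. The log2 fold change was 0.94 ± 0.21 in cPLA_2_ WT DCs (SE, limma adjusted p = 0.0005357) and -2.66 ± 0.21 in cPLA_2_ KO DCs (SE, limma adjusted p = 9.101e-10), and the interaction was -3.60 ± 0.29 (SE, limma adjusted p = 2.844e-09). In confined DCs the cPLA_2_ KO libraries were lower than the cPLA_2_ WT libraries by -2.82 ± 0.21 on the log2 scale (SE, limma adjusted p = 3.044e-10).

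In nonconfined DCs, *Dll1* was higher in cPLA_2_ KO libraries by 0.78 ± 0.21 on the log2 scale (SE, limma adjusted p = 0.02184), and the call was lost without cPLA_2_ WT replicate 2 (0.77) or 3 (0.74) or cPLA_2_ KO replicate 1 (0.75) or 3 (0.79). After LPS, *Dll1* was at 97.9 to 133 normalized counts with a median of 126, which overlaps the nonconfined cPLA_2_ KO libraries but not the cPLA_2_ WT libraries. The pooled log2 fold change was 0.47 ± 0.15 (SE, limma adjusted p = 0.007269), and it turned to -0.03 when every library was scaled to the same total. With the libraries labelled cPLA_2_ KO alone it was 0.18 and not called. At its 5′ end the gene overlaps *Fam120b* on the other strand. The kits preserve strand, but whether the counting used it is not given in the sources used here. *Fam120b* was at 751 to 1108 normalized counts and its interaction was 0.02 (limma adjusted p = 0.9391). It was called higher with LPS, by 0.16 (limma adjusted p = 0.01845). In confined cPLA_2_ WT against LPS-treated DCs its value was -0.29 and called (limma adjusted p = 0.001855).

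*Jag1*, a ligand gene of the Jagged family, rose with confinement in both genotypes. It was at 38.1, 32.4 and 63.9 normalized counts in nonconfined cPLA_2_ WT and at 207, 187 and 263 in confined cPLA_2_ WT libraries. Nonconfined cPLA_2_ KO libraries were at 36.0, 36.3 and 35.9, and confined cPLA_2_ KO libraries at 200, 210 and 191. Every confined library lay above every nonconfined one, and the genotypes overlapped after confinement. The log2 fold changes were 2.31 ± 0.19 in cPLA_2_ WT DCs (SE, limma adjusted p = 8.681e-10) and 2.44 ± 0.19 in cPLA_2_ KO DCs (SE, limma adjusted p = 8.286e-10). The interaction of 0.13 ± 0.27 was within its error (SE, limma adjusted p = 0.775). LPS brought *Jag1* to 422 to 585 with a median of 512, above all other libraries, with a log2 fold change of 3.64 ± 0.13 (SE, limma adjusted p = 2.78e-16).

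The 3 ligand genes thus differed in how the genotype went with their response to confinement, a difference that was called for *Dll4* and *Dll1* and not for *Jag1*. The neutrophil marker sums also differed between the confined groups, at 135733 to 144608 in cPLA_2_ WT and 313860 to 329649 in cPLA_2_ KO libraries, as did the eosinophil sums, at 6551 to 7158 and 14067 to 14860. Both sums differed without confinement as well. The neutrophil sums were then at 225608 to 230879 in cPLA_2_ WT and 318144 to 354292 in cPLA_2_ KO libraries, and the eosinophil sums at 25630 to 25981 and 56968 to 60196. Of the other canonical ligand genes, both named after their values were seen, *Dll3* did not pass the filter and *Jag2* was at 52.9 to 168 normalized counts. *Jag2* was not called for confinement in either genotype or for LPS, but it was higher in cPLA_2_ KO libraries by 0.96 ± 0.19 without confinement (SE, limma adjusted p = 0.003084) and by 0.76 ± 0.19 with it (SE, limma adjusted p = 0.003049).

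**Figure D1:**
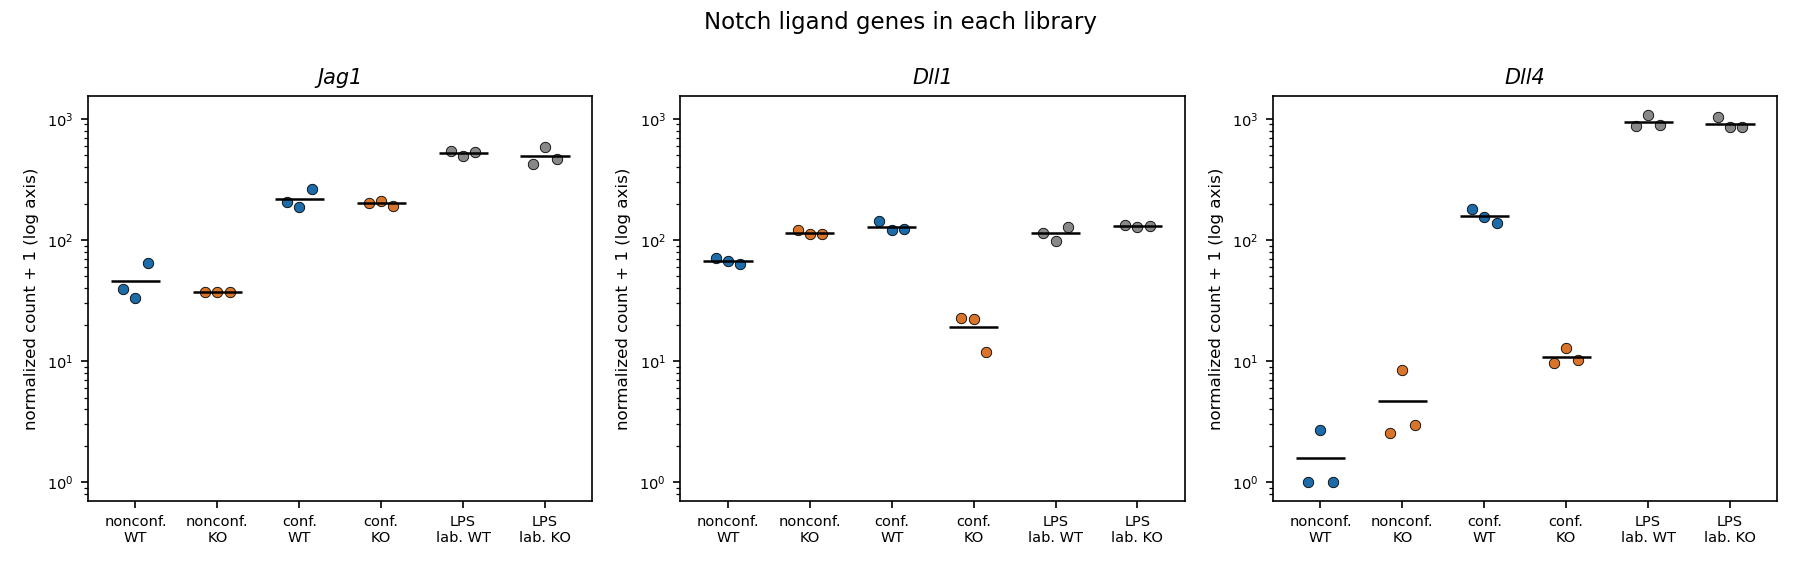
Normalized counts plus 1, on a log axis, of the ligand genes *Jag1*, *Dll1* and *Dll4* in each of 18 libraries. Points are libraries, lines are means of 3, and "conf.", "nonconf." and "lab." stand for confined, nonconfined and labelled. *Dll4* was at 137 to 178 in confined WT and at 8.63 to 11.7 in confined KO libraries, whereas *Jag1* overlapped between them.

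In the groups without LPS, the receptor genes *Notch1* and *Notch2* were expressed far above the ligands, and *Notch4* was not. Levels of different genes were compared as normalized counts per kilobase of the canonical transcript. In nonconfined cPLA_2_ WT DCs, *Notch1* was at 1425 ± 76.3 per kilobase (SD, n = 3), *Rbpj* at 455 ± 6.28, *Dtx2* at 265 ± 11.6 and *Notch2* at 260 ± 11.4. *Dll1* followed at 16.3 ± 0.894, *Nrarp* at 11.2 ± 2.98, *Jag1* at 7.80 ± 2.92, *Notch4* at 2.73 ± 0.220, *Hes1* at 2.36 ± 1.44 and *Dll4* at 0.148 ± 0.256. *Dtx2* and *Notch2*, *Nrarp* and *Jag1*, and *Notch4* and *Hes1* overlapped between libraries, and the other neighbors in this order did not.

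Confinement and LPS changed this order among the ligands and among other members. In confined cPLA_2_ WT DCs, *Dtx2* was at 575 ± 22.4 per kilobase (SD, n = 3), above *Rbpj* at 528 ± 5.27 without overlap. *Nrarp*, at 3.30 ± 2.71, lay below the ligands there. In confined cPLA_2_ WT DCs, *Dll4* was at 40.7 ± 5.28 per kilobase (SD, n = 3), *Jag1* at 38.1 ± 6.87 and *Dll1* at 31.5 ± 3.00, and the ranges of neighbors overlapped. In confined cPLA_2_ KO DCs, *Jag1* was at 34.9 ± 1.63, above *Dll1* at 4.41 ± 1.49 and *Dll4* at 2.56 ± 0.434. After LPS, *Dll4* was at 242 ± 25.4 (SD, n = 6), *Jag1* at 88.1 ± 10.0 and *Dll1* at 29.7 ± 3.23, with no overlap. *Notch1* remained the highest of the 10 genes in each group, at 1032 ± 139 in nonconfined cPLA_2_ KO DCs, 1804 ± 57.5 in confined cPLA_2_ WT, 1436 ± 19.3 in confined cPLA_2_ KO and 1159 ± 95.6 in LPS-treated DCs.

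*Notch1* rose modestly with confinement. It was at 14341, 13245 and 12974 normalized counts in nonconfined cPLA_2_ WT and at 16631, 17006 and 17706 in confined cPLA_2_ WT libraries. Nonconfined cPLA_2_ KO libraries were at 8655, 11240 and 9476, and confined cPLA_2_ KO libraries at 13412, 13730 and 13728. Confined libraries were above nonconfined ones of the same genotype, and cPLA_2_ KO below cPLA_2_ WT in both conditions, without overlap. The log2 fold changes with confinement were 0.34 ± 0.07 in cPLA_2_ WT (SE, limma adjusted p = 0.0003092) and 0.49 ± 0.07 in cPLA_2_ KO DCs (SE, limma adjusted p = 8.691e-06). Scaling to the same total reduced the former to 0.12, which was not called. The interaction of 0.14 was not called (limma adjusted p = 0.3266), but it was 0.25 and called without nonconfined cPLA_2_ KO replicate 2, and 0.33 and called with the same total per library.

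LPS-treated libraries held *Notch1* at 9842 to 12280 normalized counts with a median of 10934, below the nonconfined cPLA_2_ WT libraries and overlapping the nonconfined cPLA_2_ KO libraries. The log2 fold change of -0.06 ± 0.05 was not called (SE, limma adjusted p = 0.2591). Its call depended on the setting. It was -0.56 and called with the same total per library, -0.13 and called with TMM scaling, -0.12 and called with edgeR, -0.22 and called in the libraries labelled cPLA_2_ WT, and -0.11 and called without nonconfined cPLA_2_ KO replicate 1. *Notch1* was lower in cPLA_2_ KO DCs than in their cPLA_2_ WT counterparts by -0.47 ± 0.07 without confinement (SE, limma adjusted p = 0.0002401) and by -0.33 ± 0.07 with it (SE, limma adjusted p = 0.0008076). The latter was -0.17 and not called with the same total per library.

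*Notch2*, the receptor known from type 2 conventional DCs, was at 2880, 2649 and 2705 normalized counts in nonconfined cPLA_2_ WT and at 3056, 3206 and 3148 in confined cPLA_2_ WT libraries. The cPLA_2_ KO libraries were at 1627, 2647 and 2092 without and at 2361, 2431 and 2336 with confinement. The nonconfined cPLA_2_ KO libraries spread so widely that they enclose the confined ones. The log2 fold changes with confinement, 0.19 ± 0.11 in cPLA_2_ WT (SE, limma adjusted p = 0.1415) and 0.19 ± 0.11 in cPLA_2_ KO DCs (SE, limma adjusted p = 0.1638), were not called. Without nonconfined cPLA_2_ KO replicate 2, the value in cPLA_2_ KO DCs was 0.36 and called, and with only the compared groups fitted the unchanged value in cPLA_2_ WT DCs was called. LPS brought *Notch2* to 3029 to 4318 with a median of 3373, above all nonconfined libraries, with a log2 fold change of 0.55 ± 0.08 (SE, limma adjusted p = 1.686e-06) that fell to 0.05 and was not called with the same total per library.

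*Notch2* was lower in cPLA_2_ KO DCs than in their cPLA_2_ WT counterparts by -0.40 ± 0.11 in confined cells (SE, limma adjusted p = 0.005766), without overlap, and by -0.25 without a call with the same total per library. In nonconfined cells the difference was also -0.40 ± 0.11 (SE, limma adjusted p = 0.026). That call was lost without cPLA_2_ WT replicate 1 (-0.36), 2 (-0.42) or 3 (-0.41), without cPLA_2_ KO replicate 1 (-0.22) or 3 (-0.40), and when only the compared groups were fitted.

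*Notch4*, a receptor gene best known from endothelium, had few reads, 2 to 48 per library. It was at 16.8, 19.6 and 17.7 normalized counts in nonconfined cPLA_2_ WT, 17.2, 9.31 and 7.76 in nonconfined cPLA_2_ KO libraries, 14.5, 1.72 and 4.74 in confined cPLA_2_ WT and 17.3, 14.9 and 16.4 in confined cPLA_2_ KO libraries. Confined cPLA_2_ WT libraries were lower than nonconfined ones without overlap, and confined cPLA_2_ KO libraries overlapped with their controls. LPS-treated libraries ranged from 11.4 to 43.9 with a median of 29.0. The log2 fold change with confinement was -1.61 ± 0.53 in cPLA_2_ WT DCs (SE, limma adjusted p = 0.01273) and -1.01 without a call when confined cPLA_2_ WT replicate 2 was left out, while edgeR gave -1.34 without a call. For cPLA_2_ KO DCs the value was 0.54 (limma adjusted p = 0.4283). The interaction was 2.15 ± 0.74 (SE, limma adjusted p = 0.03767), and it lay between 1.55 and 2.20 and was not called when any 1 of these 12 libraries was left out, except nonconfined cPLA_2_ KO replicate 1 and confined cPLA_2_ WT replicate 1. Neither edgeR (1.81) nor DESeq2 (1.85) called it, and it was lost without a filter.

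The higher *Notch4* level of confined cPLA_2_ KO against cPLA_2_ WT DCs, 1.46 ± 0.53 on the log2 scale (SE, limma adjusted p = 0.0317), was lost without confined cPLA_2_ WT replicate 2 (0.86) or 3 (1.41) or without cPLA_2_ KO replicate 1 (1.42), 2 (1.52) or 3 (1.45), without a filter, with edgeR (1.18) and DESeq2 (1.21), and with the 2 groups fitted alone. With LPS the value of 0.82 was not called (limma adjusted p = 0.0536), but it was called without nonconfined cPLA_2_ KO replicate 1 (0.98), the LPS library labelled cPLA_2_ WT replicate 1 (0.98) or that labelled cPLA_2_ KO replicate 2 (1.04), with a pseudocount of 5 (0.69), with edgeR (0.86) and DESeq2 (0.89), and with the compared groups alone. The values of *Notch4* are uncertain for another reason. Its interval in the table, chr17:34445200-34807517 on the plus strand of mm39, spans 362318 bases, whereas GENCODE places the gene at chr17:34783220-34807477. The interval also holds 7 other protein-coding genes on this strand, among them *H2-Ab1*, which was at 68957 to 124202 normalized counts. Few reads of *H2-Ab1* can have been counted on *Notch4*, which held only 2 to 48 reads per library.

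*Rbpj* encodes the DNA-binding protein of the pathway. It was at 2456, 2516 and 2459 normalized counts in nonconfined cPLA_2_ WT and at 2883, 2837 and 2890 in confined cPLA_2_ WT libraries. The cPLA_2_ KO libraries were at 1759, 2159 and 1896 without and at 2333, 2251 and 2350 with confinement. Each confined group lay above its nonconfined group, and cPLA_2_ KO libraries lay below cPLA_2_ WT libraries, without overlap. In log2 terms the rise was 0.21 ± 0.06 for cPLA_2_ WT DCs (SE, limma adjusted p = 0.004014) and 0.26 ± 0.06 in cPLA_2_ KO DCs (SE, limma adjusted p = 0.001075). With the same total per library it turned to -0.01 for cPLA_2_ WT DCs, and the interaction of 0.05 (limma adjusted p = 0.7421) then was 0.24 and called. LPS brought *Rbpj* to 4284 to 4958 with a median of 4745, above all other libraries, and by 1.11 ± 0.04 on the log2 scale (SE, limma adjusted p = 4.817e-16). In cPLA_2_ KO DCs it was lower by -0.36 ± 0.06 without confinement (SE, limma adjusted p = 0.000573) and by -0.31 ± 0.06 with it (SE, limma adjusted p = 0.0002078).

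*Dtx2* encodes a Deltex ubiquitin ligase that acts on Notch receptors, and its response to confinement differed by genotype. It was at 711, 734 and 673 normalized counts in nonconfined cPLA_2_ WT and at 1588, 1539 and 1469 in confined cPLA_2_ WT libraries. The cPLA_2_ KO libraries were at 776, 757 and 807 without and at 848, 833 and 720 with confinement. Confined cPLA_2_ WT libraries were thus above all cPLA_2_ KO and nonconfined libraries, while the 2 cPLA_2_ KO groups overlapped. The log2 fold change was 1.12 ± 0.07 in cPLA_2_ WT (SE, limma adjusted p = 4.578e-12) and 0.03 ± 0.07 in cPLA_2_ KO DCs (SE, limma adjusted p = 0.7143), with an interaction of -1.08 ± 0.09 (SE, limma adjusted p = 8.3e-09). After LPS, *Dtx2* was at 1904 to 2130 with a median of 1997, a log2 fold change of 1.44 ± 0.05 (SE, limma adjusted p = 3.615e-17).

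*Nrarp*, a target of the pathway that feeds back on it, was low and fell. It was at 27.4, 22.2 and 37.3 normalized counts in nonconfined cPLA_2_ WT and at 3.87, 5.15 and 16.6 in confined cPLA_2_ WT libraries. The cPLA_2_ KO libraries were at 28.2, 44.7 and 42.7 without and at 10.8, 6.40 and 3.65 with confinement. Confined libraries were below nonconfined ones without overlap in both genotypes. The log2 fold change was -1.86 ± 0.68 in cPLA_2_ WT (SE, limma adjusted p = 0.02398) and -2.39 ± 0.68 in cPLA_2_ KO DCs (SE, limma adjusted p = 0.006458). The call in cPLA_2_ WT DCs was lost without nonconfined cPLA_2_ WT replicate 1 (-1.89) or 3 (-1.67) or confined cPLA_2_ WT replicate 1 (-1.50) or 2 (-1.67), and without a filter. LPS-treated libraries ranged from 2.12 to 39.5 with a median of 14.8 and overlapped the controls. The log2 fold change with LPS of -1.28 ± 0.48 (SE, limma adjusted p = 0.02175) was not called without nonconfined cPLA_2_ WT replicate 3 (-1.18) or the library labelled cPLA_2_ KO replicate 1 (-0.74), nor with the libraries labelled cPLA_2_ WT (-1.09) or cPLA_2_ KO (-1.47) alone.

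*Hes1*, the classical target, was barely detected. No library held more than 8 of its reads. It was at 1.52, 3.41 and 5.90 normalized counts in nonconfined cPLA_2_ WT, 0 in all 3 nonconfined cPLA_2_ KO libraries, 5.80, 3.43 and 2.37 in confined cPLA_2_ WT and 0, 2.13 and 3.65 in confined cPLA_2_ KO libraries. With LPS it lay between 0 and 7.32 with a median of 2.17. These values do not separate confined or LPS-treated from nonconfined libraries, and the gene was not tested because it did not pass the filter. The 3 nonconfined cPLA_2_ WT libraries together held 12 reads and the 3 nonconfined cPLA_2_ KO libraries 0.

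**Figure D2:**
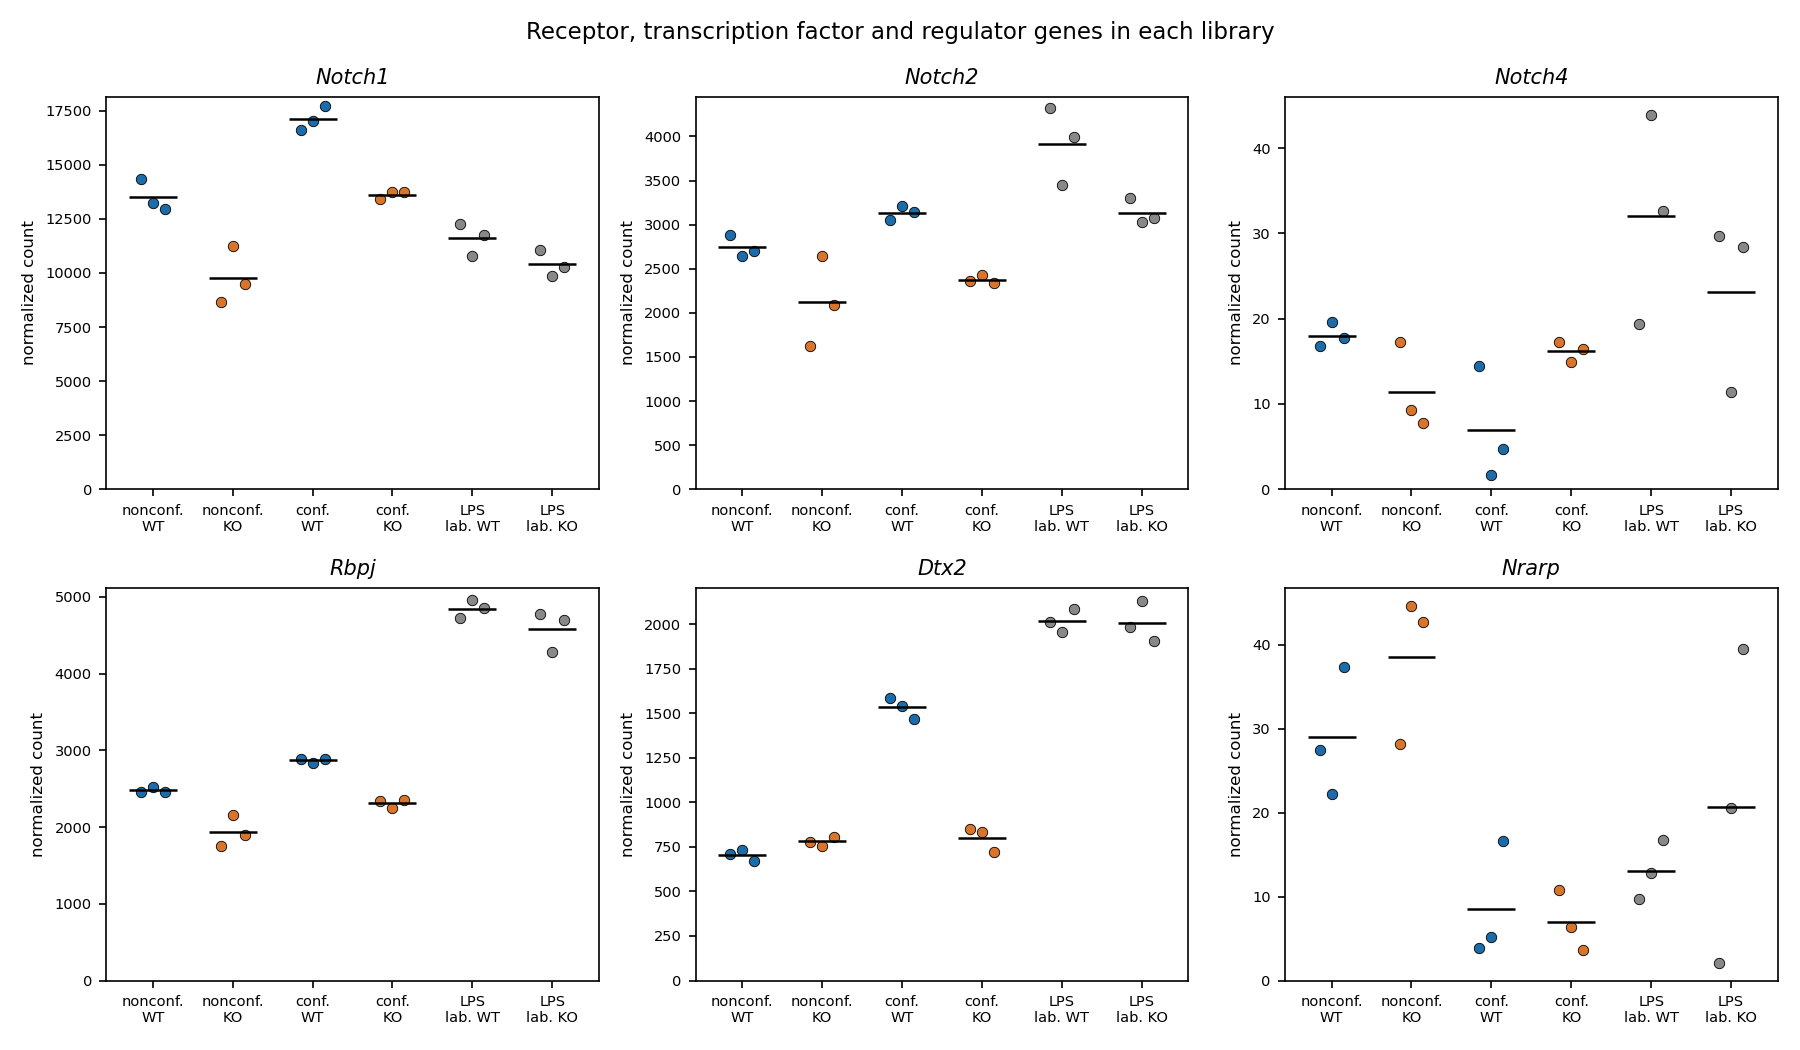
Normalized counts, on linear axes from 0, of 3 receptor genes, *Rbpj*, *Dtx2* and *Nrarp* in each of 18 libraries. Points are libraries, lines are means of 3, and labels are abbreviated as for the ligands. *Dtx2* was at 1469 to 1588 in confined WT and at 720 to 848 in confined KO libraries, and *Notch4* and *Nrarp* stayed below 45 normalized counts.

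Seen over all members, calls were frequent, as they were among all genes. With confinement in cPLA_2_ WT DCs, 6 of 9 members tested were called higher and 2 lower, beside 28.2% and 28.4% of all genes, and the median log2 fold change was 0.34 for the members and -0.01 for all genes tested. In cPLA_2_ KO DCs, 4 were higher and 2 lower, beside 22.8% and 23.4%, with medians of 0.26 and 0.01. For the interaction, 1 was higher and 3 were lower, beside 10.2% and 15.6%, with medians of 0.00 and 0.05. With LPS, 6 were higher and 1 lower, beside 37.2% and 34.3%, with medians of 0.82 and 0.02.

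The genotypes were compared within each condition in the same way. In nonconfined cPLA_2_ KO against cPLA_2_ WT DCs, 2 members were higher and 3 lower, beside 4.78% and 4.11% of all genes, with medians of -0.24 and 0.00. These 5 calls became 3 without cPLA_2_ WT replicate 1 or 2, without cPLA_2_ KO replicate 1 or 3 and with the 2 groups fitted alone, and 2 without cPLA_2_ WT replicate 3. The 1588 genes called in all then became 993, 836 and 846 without cPLA_2_ WT replicate 1, 2 or 3, and 756 and 865 without cPLA_2_ KO replicate 1 or 3. In confined DCs, 1 was higher and 6 were lower, beside 18.8% and 20.6%, with medians of -0.33 and 0.04. In LPS-treated DCs as labelled, none was called in either direction, beside 0.0% and 0.0% of all genes. Each label holds libraries high and low in *Ddx3y*, so that differences between sources enter the spread of this test. There, limma called 0 of 17875 genes and 890 had an unadjusted p under 0.05, and edgeR and DESeq2 called 0 as well. Confined cPLA_2_ WT against LPS-treated DCs gave 1 member higher, *Notch1*, and 5 lower, beside 24.5% and 29.8%, with medians of -0.71 and -0.01.

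Directions depend in part on the scaling. With the same total per library, the median over all genes tested shifted from -0.01 to -0.23 for confinement in cPLA_2_ WT DCs, from 0.02 to -0.46 for LPS, from 0.05 to 0.24 for the interaction, from 0.04 to 0.19 for cPLA_2_ KO against cPLA_2_ WT confined DCs and from -0.01 to 0.27 for confined cPLA_2_ WT against LPS-treated DCs. Genes called higher and lower then numbered 3578 and 7380 in place of 5038 and 5075 for confinement in cPLA_2_ WT DCs, 3640 and 10160 in place of 6648 and 6126 for LPS, and 4741 and 1962 in place of 1823 and 2796 for the interaction. They numbered 6001 and 2604 in place of 3356 and 3682 for cPLA_2_ KO against cPLA_2_ WT confined DCs, 757 and 1045 in place of 854 and 734 for nonconfined DCs, and 8056 and 2679 in place of 4383 and 5318 for confined cPLA_2_ WT against LPS-treated DCs. Among members that had been called, *Dll1* with LPS and *Rbpj* with confinement in cPLA_2_ WT DCs changed sign and lost their calls. TMM scaling moved the medians less for confinement in cPLA_2_ WT DCs (-0.05), LPS (-0.04) and the interaction (0.05). Genes called higher and lower with TMM scaling numbered 4672 and 5478, 6117 and 6631, and 1763 and 2724 in that order.

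**Figure D3:**
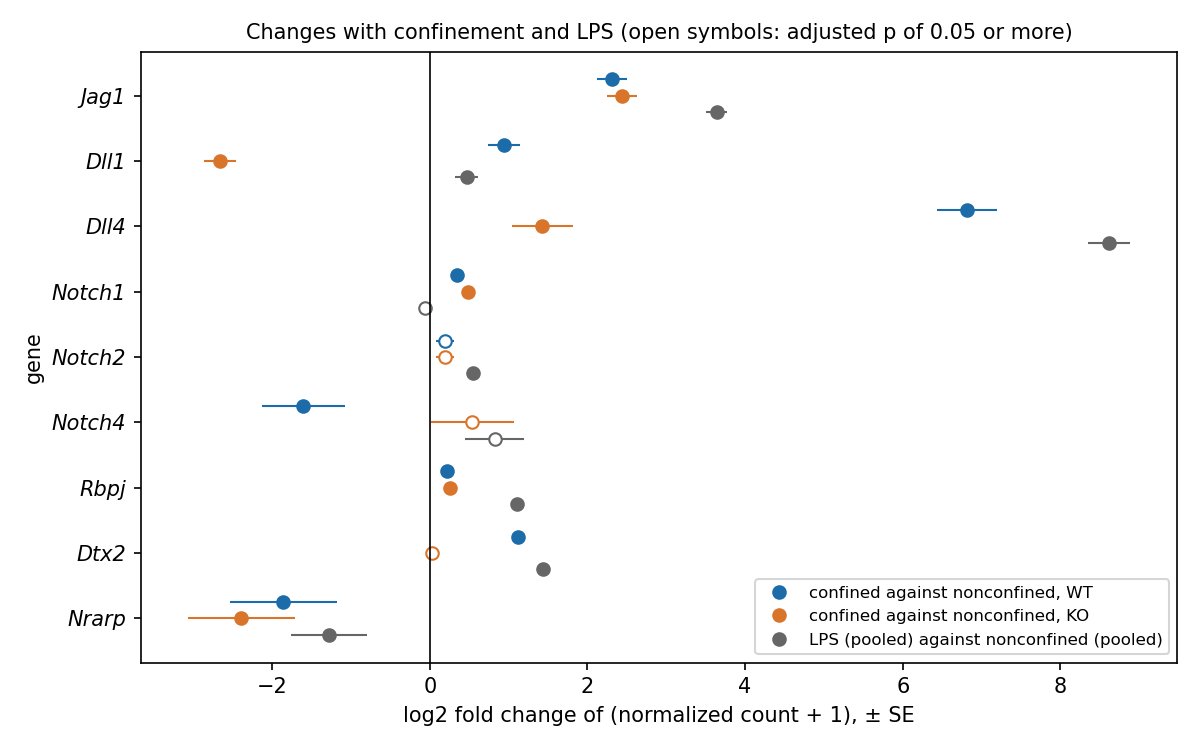
Log2 fold changes of (normalized count + 1) with SE for the 9 members tested, with confinement in WT and KO DCs and with LPS. Points are limma estimates from 3 libraries per group, 6 for the pooled LPS and nonconfined groups, and filled points were called. *Dll4* changed by 6.81, 1.43 and 8.62, and *Dll1* by 0.94, -2.66 and 0.47, the last turning to -0.03 with the same total per library.

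Other genes of the pathway were taken from lists by role. Of 56 such genes 50 passed the filter. With confinement, 17 were called higher and 16 lower in cPLA_2_ WT DCs, beside 28.2% and 28.4% of all genes, and 16 higher and 16 lower in cPLA_2_ KO DCs, beside 22.8% and 23.4%. With LPS, 25 were higher and 16 lower, beside 37.2% and 34.3%, and the interaction was called for 6 higher and 8 lower, beside 10.2% and 15.6%. cPLA_2_ KO against cPLA_2_ WT DCs gave 2 higher and 7 lower without confinement, beside 4.78% and 4.11%, and 9 higher and 15 lower with it, beside 18.8% and 20.6%. Confined cPLA_2_ WT against LPS-treated DCs gave 15 higher and 15 lower, beside 24.5% and 29.8%. The medians of these genes were 0.10 for confinement in cPLA_2_ WT DCs, -0.04 in cPLA_2_ KO DCs and 0.12 for LPS.

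The 5 genes for glycosylation of Notch receptors were called in both genotypes, 1 higher and 4 lower with confinement in cPLA_2_ WT DCs (28.2% and 28.4% of all genes) and 5 lower in cPLA_2_ KO DCs (23.4%). *Poglut1*, which adds glucose to the receptor, was at 2575, 2794 and 2774 normalized counts in nonconfined cPLA_2_ WT and at 3880, 3983 and 3763 in confined cPLA_2_ WT libraries. The cPLA_2_ KO libraries were at 3183, 2859 and 2991 without and at 1666, 1656 and 1680 with confinement. As for *Dll1*, it was higher in confined cPLA_2_ WT and lower in confined cPLA_2_ KO libraries, with an interaction of -1.37 ± 0.08 (SE, limma adjusted p = 5.709e-12). *Mfng*, a Fringe glycosyltransferase, fell in both genotypes, by -1.91 ± 0.21 in cPLA_2_ WT (SE, limma adjusted p = 8.838e-08) and less so, by -0.94 ± 0.21, among cPLA_2_ KO libraries (SE, limma adjusted p = 0.0008976).

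Of 10 genes for receptor cleavage, 6 were higher and none lower with confinement in each genotype, beside 28.2% and 28.4% of all genes in cPLA_2_ WT and 22.8% and 23.4% in cPLA_2_ KO DCs. *Furin*, which cuts the receptor on its way to the surface, was at 5072 to 5755 normalized counts in nonconfined cPLA_2_ WT and at 16528 to 17654 in confined cPLA_2_ WT libraries, and at 5954 to 6809 and 9882 to 10912 in cPLA_2_ KO libraries. *Adam17* rose by 0.61 ± 0.06 in cPLA_2_ WT (SE, limma adjusted p = 1.017e-08) and *Aph1c*, a γ-secretase subunit, by 0.68 ± 0.07 (SE, limma adjusted p = 6.653e-08). Among cPLA_2_ KO libraries the values were 0.36 for *Adam17* and 0.64 for *Aph1c*, and both were called. With LPS, *Adam17* rose by 1.53 ± 0.04 (SE, limma adjusted p = 1.305e-18) and *Aph1c* fell by 1.41 ± 0.05 on the log2 scale (SE, limma adjusted p = 2.679e-16).

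Among 8 tested genes for receptor turnover, *Dtx3l*, a Deltex relative, was at 2810, 2759 and 2666 normalized counts in nonconfined cPLA_2_ WT and at 4862, 4667 and 4820 in confined cPLA_2_ WT libraries. In cPLA_2_ KO DCs it was at 2209, 2606 and 2338 without and at 1302, 1215 and 1187 with confinement, again without overlap and in opposite directions. The interaction was -1.75 ± 0.07 (SE, limma adjusted p = 5.268e-14). *Dtx4* and *Numbl* rose with confinement in both genotypes, *Dtx4* by 1.39 ± 0.17 and 1.84 ± 0.17 (SE) and *Numbl* by 1.54 ± 0.19 and 1.71 ± 0.19 (SE) for cPLA_2_ WT and cPLA_2_ KO. Of 4 genes for ligand ubiquitination, *Neurl1b* fell by 1.06 ± 0.19 with confinement in cPLA_2_ WT DCs (SE, limma adjusted p = 4.839e-05) and by 2.33 ± 0.13 with LPS (SE, limma adjusted p = 6.811e-13). For cPLA_2_ KO DCs its value with confinement was -0.36 without a call, and the interaction of 0.70 was not called (limma adjusted p = 0.05681), though it was without nonconfined cPLA_2_ KO replicate 1 (0.79) or confined cPLA_2_ WT replicate 2 (0.89), with DESeq2 (0.65), with the same total per library (0.89), with a filter of 100 normalized counts, with the compared groups alone, and under a rule of 1.5-fold with unadjusted p below 0.05. Among the 7 coactivators, *Maml2* rose with LPS by 1.42 ± 0.07 (SE, limma adjusted p = 7.288e-14) and *Maml3* fell by 2.16 ± 0.09 (SE, limma adjusted p = 4.591e-15), and 6 of the 7 were called higher and 1 lower, beside 37.2% and 34.3% of all genes. Of 10 corepressors, 2 were higher and 3 lower with confinement in cPLA_2_ WT DCs, beside 28.2% and 28.4%, and 3 higher and 5 lower with LPS.

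Of 8 other *Hes* and *Hey* genes only 4 passed the filter. *Hes6* fell by 0.89 ± 0.19 with confinement in cPLA_2_ WT DCs (SE, limma adjusted p = 0.0003422) and by 1.59 ± 0.13 with LPS (SE, limma adjusted p = 4.955e-10). With confinement in cPLA_2_ KO DCs its value was -0.93 and called. *Heyl*, named after its values were seen, was at 1.52, 0 and 0 normalized counts in nonconfined cPLA_2_ WT, 0, 0 and 1.94 in nonconfined cPLA_2_ KO libraries, 13.5, 13.7 and 28.4 in confined cPLA_2_ WT and 4.32, 4.27 and 3.65 in confined cPLA_2_ KO libraries. Its LPS-treated libraries lay between 17.3 and 50.9 with a median of 37.2. Confined libraries were above nonconfined ones in both genotypes, with 54 reads against 2 in cPLA_2_ WT DCs (ratio 31.1, 95% interval 8.19 to 263), and the interaction was not called (limma adjusted p = 0.1015).

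The genes most alike in pattern were sought for 5 members by Pearson correlation of log2 values over the 18 libraries, among 10553 genes (10554 for *Hes1*) with a symbol and a mean of at least 100 normalized counts. These libraries share conditions, so the values describe the pattern only. For *Dll4* they were *Fbxo11* (r = 0.991), *Gch1* (0.990) and *Alpk2* (0.990), and for *Jag1* *Plpp3* (0.990), *Nampt* (0.989) and *Anxa4* (0.987). For *Notch1* they were *Atp13a3* (0.937), *Lrrc8b* (0.931) and *Arfgef3* (0.930), and for *Notch2* *Kat6a* (0.972), *Erc1* (0.955) and *Ankrd17* (0.947). For the sparse *Hes1* they were *Pigg* (0.671), *Kmt2a* (0.663) and *Zfhx3* (0.661), which is no finding.

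Promoters were read because the responses of *Dll1*, *Dll4* and *Dtx2* to confinement each differed by genotype, while *Jag1* responded alike in both and *Hes1* was almost silent. For each member the 250 bases before the start of the GENCODE canonical transcript were taken from GRCm39 and searched on both strands for TGGGAA, the core bound by RBPJ, for the core of the interferon-stimulated response element, and for the NF-κB consensus. Of 10 members, 3 held TGGGAA (22.7% of 21770 protein-coding promoters), 2 the NF-κB consensus (4.23%) and 0 the interferon-stimulated core (3.32%). TGGGAA was found 2 times before *Hes1*, at -49 to -44 and -35 to -30, and 1 time before *Rbpj* and *Dtx2*, and the NF-κB consensus before *Notch2* and *Nrarp*. The windows of *Jag1*, *Dll1* and *Dll4* held none of the 3, which says only that these letters are not in these windows. A match is a description, not a site. The windows of *Dll1* and *Rbpj*, the latter with its match, overlap an annotated untranslated region and are not shown. The sequences are given 5′ to 3′ on the gene's strand with TGGGAA, or TTCCCA where it lies on the other strand, in capitals, for *Dll4* (chr2:119155920-119156169, plus strand), *Jag1* (chr2:136958694-136958943, minus strand), *Dtx2* (chr5:136023401-136023650, plus strand) and *Hes1* (chr16:29883877-29884126, plus strand).
Dll4: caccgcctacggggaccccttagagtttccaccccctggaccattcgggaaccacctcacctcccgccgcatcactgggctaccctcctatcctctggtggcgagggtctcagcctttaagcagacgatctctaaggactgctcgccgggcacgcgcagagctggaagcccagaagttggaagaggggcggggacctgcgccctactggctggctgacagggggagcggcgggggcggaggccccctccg
Jag1: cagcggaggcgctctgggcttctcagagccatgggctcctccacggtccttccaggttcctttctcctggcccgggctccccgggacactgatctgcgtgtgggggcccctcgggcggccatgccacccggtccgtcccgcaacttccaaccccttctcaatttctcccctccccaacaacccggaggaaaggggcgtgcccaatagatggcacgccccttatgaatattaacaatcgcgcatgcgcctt
Dtx2: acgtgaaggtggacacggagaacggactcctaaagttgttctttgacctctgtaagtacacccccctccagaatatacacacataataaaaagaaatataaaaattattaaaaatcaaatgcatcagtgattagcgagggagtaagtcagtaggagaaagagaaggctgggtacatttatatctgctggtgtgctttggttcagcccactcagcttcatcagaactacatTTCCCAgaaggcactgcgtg
Hes1: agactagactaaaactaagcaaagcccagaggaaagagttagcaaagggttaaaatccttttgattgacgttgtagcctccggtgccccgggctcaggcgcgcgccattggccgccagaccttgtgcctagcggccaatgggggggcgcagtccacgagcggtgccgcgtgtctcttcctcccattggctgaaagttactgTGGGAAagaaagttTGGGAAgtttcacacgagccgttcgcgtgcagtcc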

How the data were processed

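Bulk RNA-seq of 18 libraries in 6 groups was used. The deposited table holds a gene-level signal, normalized counts, which the authors made by mapping reads with STAR (2.7.5a) to mm39, counting on the FAST DB annotation with featureCounts (1.5.0) and dividing by DESeq2 size factors, per the Methods and the submitters' processing notes. These factors were recovered, and 100% of the values came out as whole reads within 1e-06. Reads on genes per library were 33027230 to 61300021, so that counting error is small except for genes with few reads, where exact intervals were given that cover counting error only.

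Log2(normalized count + 1) was fitted with limma 3.58.1 in R 4.3.3 (lmFit, contrasts.fit, eBayes with trend) with a mean per group over all 18 libraries. Genes that reached 10 normalized counts in 3 or more libraries entered the test in 8 comparisons, with Benjamini-Hochberg adjustment within each. The pipeline was tested on simulated data. Count tests on the recovered reads called, with edgeR 4.0.16 and DESeq2 1.42.0, 10102 and 10267 genes for confinement in cPLA_2_ WT, 8348 and 8547 in cPLA_2_ KO, 4569 and 4913 for the interaction, 12785 and 12871 for LPS, 1576 and 2028 for genotype in nonconfined, 6865 and 7104 in confined and 0 and 0 in LPS-treated cells as labelled, and 9641 and 9757 for confined cPLA_2_ WT against LPS.

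Members and lists were chosen with earlier results of these data known. Named are all 10 members and those genes of the pathway lists that were called for confinement or LPS with a log2 change beyond 1 in either direction and a mean of at least 100 normalized counts. Other genes of these lists are said to be named after their values were seen. Other settings were pseudocounts of 0.5 and 5, other filters, scalings and call rules, the compared groups alone, a replicate term, the LPS labels taken one at a time, and each library left out in turn. Sequences and gene positions are from GRCm39 with GENCODE annotation.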

Additional observations from a re-analysis of the deposited data

Results flagged for a closer look

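The following genes stood out because their log2 change with confinement differed between cPLA_2_ KO and cPLA_2_ WT DCs by a direct test of the difference (limma, adjusted p under 0.05). Among the members these were *Dll4* (-5.39), *Dll1* (-3.60), *Dtx2* (-1.08) and *Notch4* (2.15), of which *Notch4* has few reads and kept its call in only 2 of the 12 fits that left out 1 library. Of the other genes of the pathway 14 of 50 tested were called, 6 higher and 8 lower, beside 10.2% and 15.6% of all genes, and those that met the rule for naming were *Dtx3l* (-1.75), *Poglut1* (-1.37), *Furin* (-0.95), *Maml2* (-0.54) and *Adam17* (-0.25), with a weaker rise or a fall in cPLA_2_ KO DCs, and *Mfng* (0.97), with a weaker fall. *Neurl1a* (-1.84), with only 2 to 46 reads per library, and *Tle3* (-1.08) also passed. Both were picked with their values known and both are among the lower calls. Of the 6 called higher, only *Mfng* met the rule for naming, so the named genes lean to the lower calls. *Lfng*, also picked with its values known, went the way of *Mfng*. It was at 3504 to 3751 normalized counts in nonconfined and 1856 to 1894 in confined cPLA_2_ WT libraries. In cPLA_2_ KO libraries it was at 3618 to 3774 without and 2879 to 2987 with confinement. The call for *Adam17* was lost without nonconfined cPLA_2_ WT replicate 1 (-0.24) or 3 (-0.25), nonconfined cPLA_2_ KO replicate 2 (-0.20), confined cPLA_2_ WT replicate 3 (-0.25) or confined cPLA_2_ KO replicate 2 (-0.21), without a filter, and with the same total per library (-0.06), where the call for *Maml2* was lost as well (-0.35). Of 8 neutrophil markers, 7 were called higher and 1 lower for the interaction, and of 4 eosinophil markers 0 were higher and 1 lower. The part of these cells was not tested.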

How the results depend on the processing

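Of 3386 single-gene values under 32 other settings, 3186 kept their side of the threshold, and 35 gained and 163 lost a call. Some values without a call changed sign, as the interaction of *Jag1* did with 1 library left out (-0.15 to 0.33). Another 2 values that had been called changed sign, *Dll1* with LPS (-0.02636) and *Rbpj* with confinement in cPLA_2_ WT DCs (-0.01236), both with the same total per library. The cause was not tested. Counts of calls moved by over 1.5 times mainly with stricter call rules.

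With an absolute log2 fold change above 1 as well, members called were 5 in place of 8 for confinement in cPLA_2_ WT DCs, 1 in place of 5 for cPLA_2_ KO against cPLA_2_ WT nonconfined, 3 in place of 7 for confined and 3 in place of 6 for confined cPLA_2_ WT against LPS. Genes called were then 3400 in place of 10113 (confinement in cPLA_2_ WT), 2139 in place of 8271 (in cPLA_2_ KO), 1371 in place of 4619 (interaction), 5188 in place of 12774 (LPS), 206 in place of 1588 (genotype, nonconfined), 1805 in place of 7038 (genotype, confined) and 2647 in place of 9701 (confined cPLA_2_ WT against LPS). Under a rule of 1.5-fold with unadjusted p below 0.05, members called were 2 for genotype in nonconfined and 4 in confined DCs, and genes 6167, 4227, 2956, 8238, 1000, 3475 and 4978 in the same order, and 316 in place of 0 for genotype in LPS as labelled. With the compared groups alone, 3 members were called for genotype in nonconfined DCs, and without a filter 1 gene for genotype in LPS as labelled.

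Leaving out 1 library at a time gave 6 to 8 members and 9296 to 9666 genes for confinement in cPLA_2_ WT, 6 to 7 and 7271 to 7891 in cPLA_2_ KO, 3 to 4 and 4066 to 4673 for the interaction, 6 to 9 and 12441 to 12643 for LPS, 6 to 7 and 6128 to 6342 for genotype in confined DCs, 0 to 0 and 0 to 3 in LPS as labelled, and 6 to 7 and 8577 to 9640 for confined cPLA_2_ WT against LPS. For genotype in nonconfined DCs it gave 2 to 4 and 756 to 2097, with 993, 836 and 846 genes without cPLA_2_ WT replicate 1, 2 or 3 and 756 and 865 without cPLA_2_ KO replicate 1 or 3. The 3 genes appeared without the library labelled cPLA_2_ WT replicate 2, and 1 without that labelled cPLA_2_ KO replicate 2.

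Replicate numbers were not used as pairs in the main fit, since in no comparison was every correlation of same-numbered residuals above 0.1 (confined cPLA_2_ WT with cPLA_2_ KO: 0.338, 0.208 and 0.0402). This rule does not show that same-numbered libraries are unrelated. For replicates 1 and 2, nonconfined cPLA_2_ WT libraries gave 0.163 and 0.206 with confined cPLA_2_ KO and 0.183 and 0.106 with confined cPLA_2_ WT libraries. With the replicate number as a block, members called were 8, 6, 4, 7, 5, 7, 0 and 6, as without it, for confinement in cPLA_2_ WT and cPLA_2_ KO, interaction, LPS, genotype in nonconfined, confined and LPS-treated DCs, and confined cPLA_2_ WT against LPS, and genes 10002, 8138, 4426, 12718, 1384, 6861, 0 and 9576. Depth limits *Hes1*, *Notch4*, *Nrarp* and *Dll4* in nonconfined DCs, which had few reads.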
